A study of Mus musculus with 24 samples.

Results

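Loss of SpiB in naive mouse B cells was examined by setting 2 SpiB KO libraries against 2 control libraries, 4 of the 24 RNA-seq libraries of the study, across all genes with at least 0.5 CPM (counts scaled to a common library size) in at least 2 of the 8 naive libraries. Of 27179 genes counted, 12500 met that rule. Control B cells were Cd23T/+, that is, they carried a bacterial artificial chromosome transgene in which Cre recombinase is driven by the regulatory sequences of Cd23 (Fcer2a), a gene switched on as B cells mature. SpiB KO B cells were Spi1fl/fl Cd23+/+ Spib-/-. They therefore lacked Spib in every cell of the mouse and carried no Cre, and their Spi1 alleles, which encode PU.1, were floxed around exon 5 but not deleted. The Spib allele lacks exon 6. SpiB KO and control thus differed in Spib, in the Cre transgene and in the floxed alleles at once, and these cannot be told apart from this comparison alone. The remaining 4 naive libraries came from mice with both floxed Spi1 and Cre, namely PU.1 cKO mice, Spi1fl/fl Cd23T/+, and mice that lacked Spib too (Spi1fl/fl Cd23T/+ Spib-/-, labelled PU.1 SpiB DKO). By their labels the last pair differ from each other only in Spib. They are called cKO and DKO from here on. Excision of the floxed Spi1 exon was complete in naive cKO cells but incomplete in naive DKO cells according to the study, so this pair can differ in remaining PU.1 too. All strains were kept on a C57BL/6 background per the methods, and mice were 6 to 20 weeks old. Whether the genotypes shared that background at every locus was not tested. Naive lymph node B cells were enriched by negative selection with a B cell isolation kit, per the methods. They were sorted as CD3- B220+ CD138-, per a supplementary figure legend of the study. Each genotype had 2 biological replicates per the methods.

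SpiB and PU.1 are closely related ETS-family transcription factors that bind DNA at sites with a GGAA core and can occupy many of the same sites. PU.1 is present across myeloid and B cells, whereas SpiB is restricted mainly to B cells and plasmacytoid dendritic cells (pDCs), the specialised producers of type I interferon. In B cells both factors are known for work downstream of the B cell receptor and Toll-like receptors, and Cd23 is a long-known target. pDCs carry B220 on their surface and lack CD3, as do B cells.

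The 4 libraries held 14231188 to 18194629 counts on genes. The 2 control libraries differed more from each other than the replicates of any other naive genotype, with a correlation of log2 CPM of 0.980 against 0.987 to 0.989. Ribosomal RNA precursor Rn45s took 3.62% of the counts in control replicate 1 and 0.185% in control replicate 2. Cd79a and Cd3e were looked at as markers of B cells and T cells. Cd79a, a signalling chain of the B cell receptor, measured 2877 and 2900.1 CPM in the control libraries and 2802 and 2544 CPM in those of SpiB KO. Cd3e was all but absent, with 3 and 4 raw counts in control and 1 and 7 in SpiB KO, in cells sorted as CD3-. These markers do not show whether cells such as pDCs were present, and lists of other cell types are given below. Levels throughout are TMM-normalised CPM, replicate 1 before replicate 2. Fold changes are on the log2 scale, SpiB KO minus control, the value after ± is a standard error, and no comparison across genes of a level is corrected for gene length.

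Naive SpiB KO B cells differed from control at 794 genes (6.35% of the 12500 tested). A gene counted as differentially expressed (DE) when 3 conditions held: edgeR's quasi-likelihood test gave an adjusted p (Benjamini-Hochberg) under 0.15, the levels differed by more than 1.5-fold, and the mean of the deposited log2 RPKM over the 8 naive libraries was above 0. The levels rose at 432 genes (3.46%) and fell at 362 (2.9%). The rises were larger: 42 genes rose at least 8-fold and 122 at least 4-fold, whereas 2 fell at least 8-fold and 6 at least 4-fold. Genes that rose had a median log2 fold change of 1.27 and were low in control, with a median of 5.53 CPM there. Genes that fell had a median of -0.81 and a median control level of 59.0 CPM. The median over all genes tested was 0.01. Between groups the libraries did not overlap at any of the 794 genes. Among all genes tested, 5822 had no such overlap. The count of falls depended on single libraries. It was 984 without control replicate 1, 97 without control replicate 2, 45 without SpiB KO replicate 1 and 171 without SpiB KO replicate 2. Rises numbered 575, 322, 260 and 370 in the same order.

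**Figure D1:**
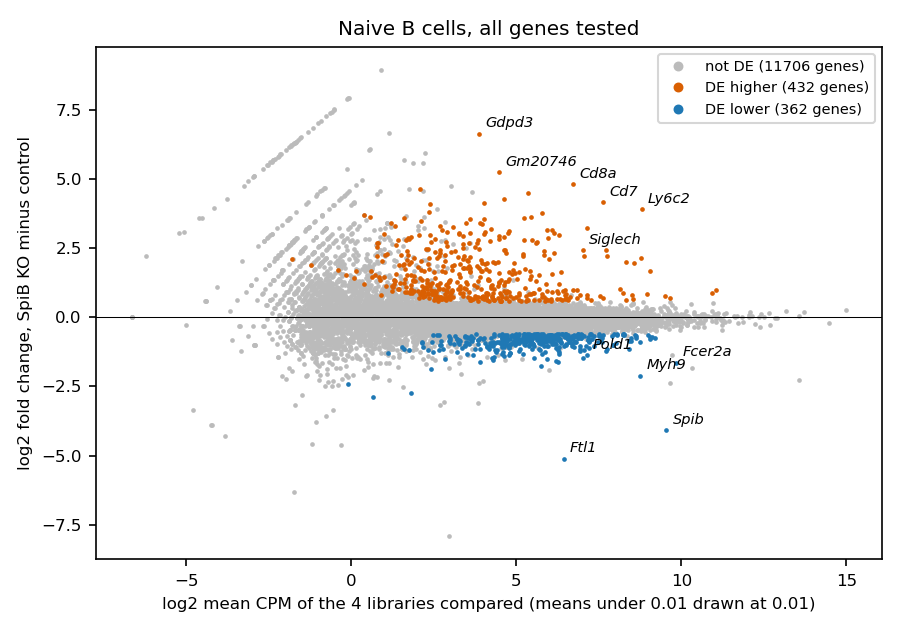
The log2 fold change of SpiB KO minus control (vertical) is plotted against the log2 mean CPM of the 4 libraries (horizontal) for the 12500 genes tested, 1 point a gene. The 432 genes that rose extend to a log2 fold change of 6.65 and lie mostly at low levels, and the 362 that fell lie mostly within -2 with Spib and Ftl1 far below. Grey points far from 0 at the left are genes that did not meet the adjusted p or the RPKM threshold.

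The targeted gene was examined first. Spib measured 1472 and 1355 CPM in the control libraries and 85.6 and 80.2 CPM in those of SpiB KO, so the log2 fold change was -4.09 ± 0.13, adjusted p = 5.64e-07. Both SpiB KO libraries were far below both control libraries. Exon 6, the last and longest exon, spans chr7:44525993-44528257 on GRCm38 in the GENCODE vM21 transcript, and the counts cover the whole gene, so the remaining counts can include transcript from the exons outside the deletion. Spi1, which was floxed but intact in SpiB KO, measured 155 and 174 CPM in the control libraries and 163 and 163 CPM in those of SpiB KO (-0.01 ± 0.11, adjusted p = 0.969), and the groups overlapped. In the genotypes with Cre, Spi1 measured 59.5 and 53.2 CPM in cKO and 103 and 110.2 CPM in DKO. Neither of these levels was at 0, and exons outside the deletion are counted here too.

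Fcer2a, which encodes the low-affinity IgE receptor CD23, was the most abundant gene after Spib among the 15 largest falls. It measured 1317 and 1475 CPM in the control libraries and 439 and 461 CPM in those of SpiB KO (-1.63 ± 0.14, adjusted p = 0.000223). The SpiB KO libraries lay at about the same level as each other and below both control libraries. Within the genotypes with Cre it measured 810.2 and 875 CPM in cKO and 153 and 197 CPM in DKO, lower without Spib too (-2.27 ± 0.14). The change in DKO against cKO and that in SpiB KO against control were not shown to differ (difference -0.63 ± 0.19, adjusted p = 0.27). Fcer2a stayed DE without any one of the 4 libraries, at log2 fold changes from -1.72 to -1.57. The Cd23-Cre transgene in control, absent from SpiB KO, carries the regulatory sequences of this gene. Trappc5, a subunit of a vesicle tethering complex that overlaps the end of Fcer2a on chromosome 8, also fell, from 182 and 176 CPM to 115 and 105 CPM (-0.71 ± 0.11, adjusted p = 0.00448). Whether the counting used strand is not given in the sources used here, and reads in the overlap cannot be assigned to one of the 2 genes. Arhgef18, a guanine nucleotide exchange factor 224 kb from Fcer2a, fell from 140.4 and 231 CPM to 85.5 and 94.5 CPM (-1.04 ± 0.22, adjusted p = 0.0232), and without SpiB KO replicate 1 it measured -0.97 and was not DE (adjusted p = 0.192).

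Promoter sequences of Fcer2a, a fall that held without any one library, and of Cd8a and Ly6c2, which are among the largest rises, are shown because SpiB binds GGAA. They are RefSeq promoters of GRCm38.p6, 250 bases before to 50 after a transcription start, read 5′ to 3′ on the strand of the gene. Capitals mark each GGAA and its reverse complement TTCC. Fcer2a has 3 entries, of which the 2 with the most matches are printed, at chr8:3694125-3694424 (minus strand, 3 matches) and chr8:3690812-3691111 (minus strand, 6 matches). The Cd8a entry is chr6:71373177-71373476 (plus strand, 7 matches, among them a TTCCTC, the reverse complement of GAGGAA). The Ly6c2 entry is chr15:75111922-75112221 (minus strand, 4 matches, of which 2 extend to GAGGAA, both as GAGGAAGT).
Fcer2a upstream start: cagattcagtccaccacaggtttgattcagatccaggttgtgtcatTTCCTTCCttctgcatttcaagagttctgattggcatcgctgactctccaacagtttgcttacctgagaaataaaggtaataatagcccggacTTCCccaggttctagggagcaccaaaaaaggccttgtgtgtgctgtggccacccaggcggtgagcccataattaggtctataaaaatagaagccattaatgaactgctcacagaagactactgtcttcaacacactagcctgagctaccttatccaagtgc
Fcer2a downstream start: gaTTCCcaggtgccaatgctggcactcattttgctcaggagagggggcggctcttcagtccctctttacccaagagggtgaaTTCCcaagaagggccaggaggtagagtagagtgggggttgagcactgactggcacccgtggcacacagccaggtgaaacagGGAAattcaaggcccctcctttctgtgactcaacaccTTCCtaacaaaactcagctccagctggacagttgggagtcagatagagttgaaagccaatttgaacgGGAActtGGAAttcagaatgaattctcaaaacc
Cd8a: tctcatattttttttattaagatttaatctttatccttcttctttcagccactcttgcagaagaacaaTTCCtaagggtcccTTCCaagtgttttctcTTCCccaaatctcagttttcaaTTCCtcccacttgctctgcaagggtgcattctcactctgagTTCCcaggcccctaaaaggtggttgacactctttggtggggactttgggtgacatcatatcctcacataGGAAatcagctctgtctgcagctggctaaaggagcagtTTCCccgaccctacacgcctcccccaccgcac
Ly6c2: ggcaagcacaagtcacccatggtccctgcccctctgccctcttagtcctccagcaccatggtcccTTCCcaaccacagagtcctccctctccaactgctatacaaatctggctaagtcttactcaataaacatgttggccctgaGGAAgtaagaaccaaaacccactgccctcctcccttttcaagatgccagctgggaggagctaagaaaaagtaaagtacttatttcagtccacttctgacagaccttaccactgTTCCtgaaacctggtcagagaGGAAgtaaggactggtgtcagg

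A GGAA in these letters is common. Of the genes tested, 9466 had a promoter in the table, and 96.4% of them held GGAA on at least 1 strand. The share was 96.4% among 331 genes that rose and 96.9% among 291 that fell. The longer GAGGAA was held by 30.3% of the tested genes with a promoter, by 36.9% of those that rose and by 33.7% of those that fell. GAGGAAGT was held by 3.95%, 5.44% and 2.41% in the same order. Each longer motif contains the shorter ones, both strands were searched, and the shares over all promoters of the table were 96.5%, 31.3% and 3.69% of genes. No test was made of these shares.

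Genes that define B cells were near their control level. None of the 14 core B lineage genes rose and 1 fell, with a median log2 fold change of -0.17 against 0.01 over all genes. Over all genes tested 3.46% rose and 2.9% fell, shares that belong beside each list count below. The one that fell was Cd22, an inhibitory co-receptor of the B cell receptor, at 537 and 937 CPM in the control libraries and 399 and 482 CPM in those of SpiB KO (-0.74 ± 0.24, adjusted p = 0.11), and it was DE no longer without control replicate 2 (-0.30, adjusted p = 0.555) or without either SpiB KO library. The list held 3 falls without control replicate 1. Of 14 follicular B cell genes, 1 fell, Fcer2a, and the list median was -0.19. Cr2 (complement receptor 2) and Cxcr5 (the follicle-homing receptor) had log2 fold changes of -0.04 and -0.14 and did not pass the test. Tnfrsf13c, the receptor for the survival factor BAFF, measured 521 and 585 CPM in the control libraries and 411 and 432 CPM in those of SpiB KO. Its adjusted p was 0.0975 but its log2 fold change of -0.39 ± 0.12 was under the fold threshold, so it was not DE.

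B cell receptor signalling genes were slightly lower as a list and mostly not DE. The median over 38 genes was -0.25 and the range -0.88 to 0.07. Of these genes, 3 fell and none rose, beside 2.9% and 3.46% of all genes tested. Beside Cd22 these were Inpp5d, which encodes the inhibitory phosphatase SHIP-1, at 338 and 403 CPM in the control libraries and 232 and 252 CPM in those of SpiB KO (-0.61 ± 0.15, adjusted p = 0.0497), and Rasgrp3, a Ras activator, at 186 and 248 CPM in the control libraries and 132 and 156 CPM in those of SpiB KO (-0.59 ± 0.21, adjusted p = 0.146). All 3 lost the call without control replicate 2 or either SpiB KO library, and without control replicate 1 the falls numbered 9. Plcg2, a phospholipase of the pathway, measured 379.7 and 512 CPM in the control libraries and 281 and 318 CPM in those of SpiB KO and Btk, a kinase upstream of it, 169.9 and 193 CPM in the control libraries and 134 and 164 CPM in those of SpiB KO, with log2 fold changes of -0.57 and -0.29 that were not DE. The 11 tested receptor chains came without an RPKM value, which the call needs, so none could be DE. Ighm measured 7214 and 7209 CPM in the control libraries and 6016 and 5955 CPM in those of SpiB KO and Igkc 5401 and 4949 CPM in the control libraries and 4569.8 and 4132 CPM in those of SpiB KO, with adjusted p of 0.224 and 0.28.

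Other B cell states were given by their lists, beside 3.46% of all genes tested that rose and 2.9% that fell. Among 12 marginal zone genes 1 rose and 1 fell. S1pr3, a sphingosine-1-phosphate receptor, rose from 8.41 and 7.89 CPM to 15.8 and 20.9 CPM (1.17 ± 0.19, adjusted p = 0.00694), and Notch2, the receptor that directs marginal zone fate, fell from 393 and 589.6 CPM to 291 and 297 CPM (-0.74 ± 0.17, adjusted p = 0.0337), although it was not DE without control replicate 2 or either SpiB KO library. Of 9 tested B-1 cell genes, 5 rose and none fell, with a median of 1.18. S100a6, a calcium-binding protein, reached 73.9 and 55.0 CPM from 20.9 and 19.5 CPM, and Bhlhe41, a transcription factor of B-1 cells, 12.9 and 15.6 CPM from 6.30 and 3.20 CPM. Cd5 and Itgam, both surface markers of these cells, were low, at 1.75 and 0.996 CPM in the control libraries and 3.57 and 2.70 CPM in those of SpiB KO for Cd5 and 3.22 and 2.77 CPM in the control libraries and 3.99 and 2.32 CPM in those of SpiB KO for Itgam, and were not DE. Without 1 of the 4 libraries 3 or 4 of these genes rose, and with control replicate 2 left out the count was 3. None of the 10 germinal centre genes was DE. Of 14 plasma cell genes 2 rose, Cd28 and Sdc1, and of 7 immature B cell genes Dntt rose and Vpreb3, a surrogate light chain partner, fell from 174 and 148 CPM to 111 and 91.3 CPM, a call lost without control replicate 1 or SpiB KO replicate 2. Of 10 genes of memory and CD11c+ B cells 3 rose (Zeb2, Itgax, Cxcr3) and Ffar1 fell.

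**Figure D2:**
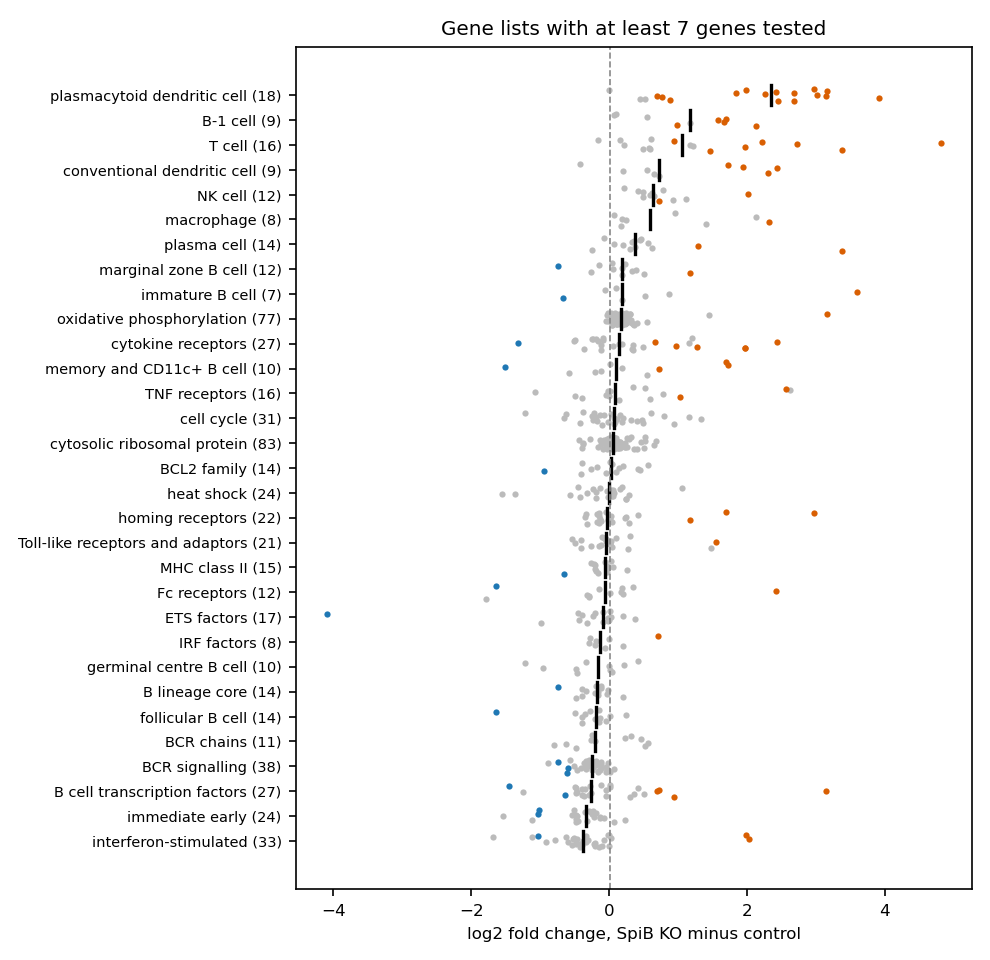
Each point is a gene, placed by its log2 fold change of SpiB KO minus control, in the lists with at least 7 genes tested (number tested in brackets). Orange points rose, blue points fell, grey points were not DE, black bars mark list medians and the dashed line marks the median of all genes. The pDC list stands highest with a median of 2.34, while most B cell lists have medians within 0.4 of 0.

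The largest rises, by fold, reached genes that were scarce in control. Gdpd3, a lysophospholipase D, measured 0.42 and 0.142 CPM in the control libraries and 29.1 and 29.2 CPM in those of SpiB KO (6.65 ± 0.40, adjusted p = 6.89e-05), a level read on 8 counts in control. Gm20746, a predicted gene on chromosome 10, measured 1.19 and 1.07 CPM in the control libraries and 46.9 and 39.6 CPM in those of SpiB KO (5.25 ± 0.24, adjusted p = 1.14e-05). Cd8a, the alpha chain of the CD8 co-receptor that T cells and some dendritic cells carry, measured 12.0 and 2.35 CPM in the control libraries and 231 and 175 CPM in those of SpiB KO (4.82 ± 0.48, adjusted p = 0.000471). At each of the 3 both SpiB KO libraries stood far above both control libraries. Fads3 and Fads2, neighbouring genes of fatty acid desaturation, rose from 3.78 and 0.996 CPM to 50.2 and 43.8 CPM and from 2.66 and 0.853 CPM to 35.6 and 26.4 CPM. In control replicate 1 both were about 3 times or more their level in control replicate 2.

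Cd7, an immunoglobulin superfamily receptor, was among the most abundant of the large rises, at 29.0 and 13.1 CPM in the control libraries and 426 and 329 CPM in those of SpiB KO (4.16 ± 0.34, adjusted p = 0.000178). Ly6c2, a surface protein of pDCs and monocytes, reached 950.4 and 722 CPM from 69.0 and 42.3 CPM (3.91 ± 0.27, adjusted p = 0.000103). It has a near-identical neighbour, Ly6c1, so its count from uniquely mapped reads is uncertain. Dntt, terminal deoxynucleotidyl transferase, which adds bases during antigen receptor rearrangement, rose from 7.91 and 3.63 CPM to 70.8 and 69.3 CPM (3.598 ± 0.27, adjusted p = 0.000121). Others among the 15 largest rises were Timp2, an inhibitor of matrix proteases, Smim5, a small membrane protein, Chdh, choline dehydrogenase, Cdh1, E-cadherin, Mybpc2, a myosin-binding protein, and Atp2a1, a calcium pump of muscle. Their log2 fold changes were 3.77, 3.62, 3.56, 3.56, 3.41 and 3.40.

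**Figure D3:**
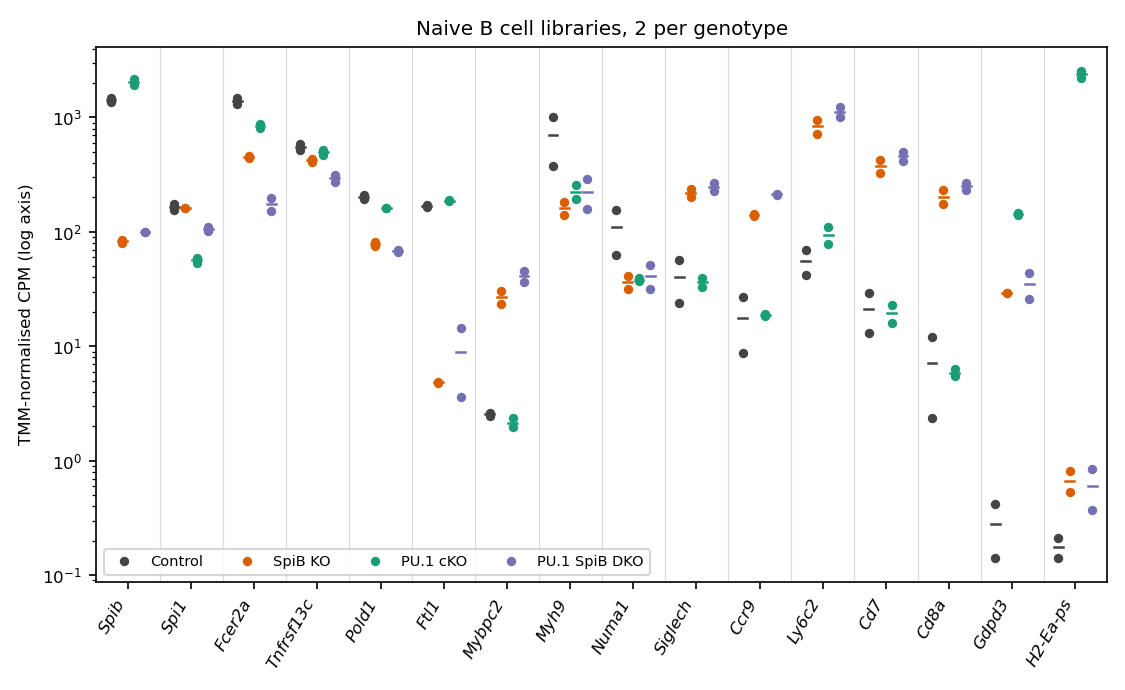
TMM-normalised CPM on a log axis is plotted for 16 genes, with 1 point for each of the 2 libraries of a genotype and a short bar at their mean. Spib, Fcer2a, Pold1 and Ftl1 are lower in both genotypes without Spib than in both with it, whereas Siglech, Ccr9, Ly6c2, Cd7 and Cd8a are higher in both. Myh9 and Numa1 stand apart in control replicate 2, Gdpd3 is higher in the 3 genotypes with floxed Spi1 alleles than in control, and H2-Ea-ps is high only in cKO among the 4 genotypes.

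Genes of pDCs rose together. Of 18 pDC genes, all tested, 15 were DE higher and none lower, beside 3.46% of all genes tested, and the list median was 2.34. The list was drawn up with earlier results of these libraries known. Siglech, a pDC lectin, measured 57.2 and 23.9 CPM in the control libraries and 237 and 199.9 CPM in those of SpiB KO (2.43 ± 0.32, adjusted p = 0.0019). Ccr9, a chemokine receptor of pDCs and gut-homing lymphocytes, measured 27.0 and 8.68 CPM in the control libraries and 137 and 144 CPM in those of SpiB KO (2.97 ± 0.37, adjusted p = 0.00145). Bst2, which encodes the surface protein tetherin, measured 145 and 113 CPM in the control libraries and 584 and 437 CPM in those of SpiB KO (1.99 ± 0.17, adjusted p = 0.000223). In each of them control replicate 1 was above control replicate 2, and both SpiB KO libraries were above both. Runx2, a transcription factor of pDCs, rose from 16.7 and 8.11 CPM to 129 and 92.3 CPM, and Tcf4, the factor that defines pDC identity and is also expressed in B cells, from 98.1 and 119 CPM to 170.1 and 182 CPM (0.70 ± 0.16, adjusted p = 0.0317), although Tcf4 was not DE without control replicate 1 or SpiB KO replicate 2. Irf7, Rnase6 and Ly6d were not DE, at log2 fold changes of 0.01, 0.45 and 0.53.

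Over the 18 pDC genes the summed level was 2842 and 2525 CPM in the control libraries and 6474 and 5357 CPM in SpiB KO. Of the 18, 15 were above 10 CPM in control. The sort, CD3- B220+ CD138-, would not remove pDCs, and whether the negative selection before it did was not tested. In these bulk samples fewer or more cells of a type cannot be told apart from less or more RNA per cell. The part of pDCs in the rises was not tested. The list median was 1.87 to 2.80 without any one library, and 14 or 15 genes rose. Of the 432 genes that rose in all, 77.5% were higher in control replicate 1 than in control replicate 2, against 47.9% of all genes tested.

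Markers of T cells rose in part. Of 22 genes 16 were tested, with a median of 1.06. Their summed level was 115 to 186 CPM in control and 501 to 609 CPM in SpiB KO. Of the 16, 7 rose and none fell, beside 3.46% and 2.9% of all genes tested. Beside Cd8a these included Cd8b1, its partner chain, from 19.5 and 6.76 CPM to 97.0 and 76.1 CPM, Cd4 from 19.1 and 6.76 CPM to 60.9 and 59.97 CPM, and Il7r, the interleukin 7 receptor, from 8.90 and 5.12 CPM to 25.5 and 29.7 CPM. Cd28, the co-stimulatory receptor, rose from 3.29 and 2.13 CPM to 30.9 and 25.8 CPM (3.38 ± 0.27, adjusted p = 0.000173). The subunits of CD3 itself were near 0, with Cd3d at 0.911 and 0.569 CPM in the control libraries and 1.19 and 1.08 CPM in those of SpiB KO and Cd3g at 1.12 and 0.142 CPM in the control libraries and 0.654 and 0.485 CPM in those of SpiB KO, and neither was DE. Without 1 library 6 or 7 T cell genes rose.

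Macrophage genes were scarce. Of 20, 8 passed the filter and only Cd68, a lysosomal protein, rose, from 11.3 and 5.76 CPM to 49.1 and 36.8 CPM (2.33 ± 0.27, adjusted p = 0.000935). Csf1r, the receptor that macrophages depend on, measured 0.77 and 0.0711 CPM in the control libraries and 0.595 and 0.377 CPM in those of SpiB KO, and Mertk and Vsig4 had 0 counts in all 4 libraries. The macrophage list had a median of 0.60. Its summed level was 15.1 to 27.3 CPM in control and 54.8 to 66.3 CPM in SpiB KO. Of 13 conventional dendritic cell genes, 9 were tested and 4 rose: Flt3, the receptor of dendritic cell growth (9.74 and 5.90 CPM to 41.6 and 43.1 CPM), Sirpa (12.8 and 12.0 CPM to 59.96 and 63.3 CPM), Itgax, which encodes CD11c (19.1 and 8.68 CPM to 49.4 and 42.6 CPM), and Clec9a (3.01 and 1.07 CPM to 9.46 and 6.31 CPM). Zbtb46, which marks these cells, measured 0.42 and 0.569 CPM in the control libraries and 0.654 and 0.485 CPM in those of SpiB KO. Clec9a was not DE without SpiB KO replicate 1. The conventional dendritic cell list had a median of 0.73. Its summed level was 39.9 to 71.8 CPM in control and 176 to 186 CPM in SpiB KO. The part of these cell types in the rises was not tested.

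Of 12 NK cell genes 2 rose, Klrd1, an inhibitory receptor chain, and Prf1, the pore-forming protein perforin, at 12.5 and 4.91 CPM in the control libraries and 39.3 and 30.8 CPM in those of SpiB KO and 14.3 and 8.96 CPM in the control libraries and 19.3 and 19.3 CPM in those of SpiB KO. Prf1 was not DE without control replicate 2 or either SpiB KO library. Ncr1 and Klrb1c, which define NK cells, were not DE, at 11.1 and 5.97 CPM in the control libraries and 13.9 and 9.17 CPM in those of SpiB KO for Ncr1. The median over the 12 NK cell genes was 0.64 and the lowest log2 fold change 0.22. Their summed level was 105 to 213 CPM in control and 227 to 322 CPM in SpiB KO. None of 3 tested genes of neutrophils, red cells and platelets was DE. Cdh5, a cadherin of vessels, was DE among 2 tested stromal genes, at 4.06 and 3.34 CPM in the control libraries and 34.3 and 33.9 CPM in those of SpiB KO (3.20 ± 0.23, adjusted p = 0.000111), while Pdpn, Lyve1 and Ccl21a had 0 counts in all 4 libraries.

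Receptors for cytokines changed in both directions. Of 27 tested, 6 rose and 1 fell, beside 3.46% and 2.9% of all genes tested. Csf2rb and Csf2rb2, near-identical genes for the shared chain of the receptors for GM-CSF, IL-3 and IL-5, rose from 14.8 and 11.4 CPM to 29.4 and 34.0 CPM and from 15.4 and 9.32 CPM to 49.1 and 48.2 CPM. Ifnar2, a chain of the type I interferon receptor, measured 54.6 and 64.9 CPM in the control libraries and 118 and 116 CPM in those of SpiB KO (0.97 ± 0.12, adjusted p = 0.00108), and Il6ra, the IL-6 receptor, fell from 14.1 and 18.1 CPM to 5.47 and 7.44 CPM (-1.32 ± 0.23, adjusted p = 0.0103). Among 21 Toll-like receptor genes and adaptors 1 rose, Tlr12, at 18.6 and 10.9 CPM in the control libraries and 46.3 and 40.6 CPM in those of SpiB KO, and none fell. Of 12 Fc receptor genes Fcer2a fell and Fcer1g, the signalling chain shared by several of them, rose from 24.1 and 11.5 CPM to 115 and 75.8 CPM (2.42 ± 0.34, adjusted p = 0.00284). Of 22 homing receptors 3 rose, Ccr9, S1pr3 and the chemokine receptor Cxcr3 (9.18 and 7.68 CPM to 30.5 and 24.1 CPM), and none fell. Tnfrsf21, which was not DE without SpiB KO replicate 1, and Tnfrsf1a rose among 16 TNF receptors, Tnfrsf1a from 3.01 and 1.28 CPM to 14.99 and 10.6 CPM and Tnfrsf21 from 4.55 and 3.70 CPM to 9.16 and 7.77 CPM.

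Among regulators, Irf8, a factor of B cells and dendritic cells, was the single DE member of 8 IRF genes and rose from 632 and 585 CPM to 992 and 989.6 CPM (0.70 ± 0.10, adjusted p = 0.00399). Of 17 tested ETS genes, only Spib was DE. Of 27 B cell transcription factors 4 rose (Runx2, Tcf4, Zeb2, Myb) and 2 fell, Pou2f2, which encodes OCT2, at 38.2 and 98.4 CPM in the control libraries and 20.9 and 28.9 CPM in those of SpiB KO, and Ikzf3, which encodes Aiolos, at 408 and 537 CPM in the control libraries and 279 and 329 CPM in those of SpiB KO. Pou2f2 and Ikzf3 lost the call without control replicate 2 or either SpiB KO library, Myb without control replicate 2 or SpiB KO replicate 1, and Zeb2 without any one library but control replicate 2. Of 24 immediate early genes none rose and 2 fell, with a median of -0.34. Junb measured 405 and 240.5 CPM in the control libraries and 174 and 146 CPM in those of SpiB KO (-1.01 ± 0.21, adjusted p = 0.0221) and Jun 101 and 51.5 CPM in the control libraries and 44.1 and 30.4 CPM in those of SpiB KO (-1.03 ± 0.29, adjusted p = 0.0766), both with control replicate 1 above control replicate 2. Jun lost its call without any one library but control replicate 2, and Junb without SpiB KO replicate 2. Without control replicate 2, 6 immediate early genes fell. Of 33 tested interferon-stimulated genes, 2 rose, Bst2 and Ifi44, and 1 fell, the antiviral sensor Oas1a (20.7 and 31.4 CPM to 10.6 and 14.9 CPM), with a median of -0.38 that ranged from -0.86 to 0.03 with 1 library left out. Oas1a was not DE without control replicate 2 or SpiB KO replicate 1. Without control replicate 1, 6 of the list fell. Among 14 BCL2 family genes Pmaip1, which encodes the death promoter NOXA, fell from 23.3 and 25.3 CPM to 13.98 and 11.3 CPM (-0.94 ± 0.19, adjusted p = 0.0216), but was not DE without SpiB KO replicate 2.

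Ribosomal protein, cell cycle and heat shock genes were near 0 as lists. None of 83 ribosomal protein genes, 31 cell cycle genes or 24 heat shock genes was DE, with medians of 0.06, 0.07 and 0.00. At an adjusted p under 0.15 without the fold and RPKM thresholds these lists held 1, 1 and 2 genes. The 77 oxidative phosphorylation genes had a median of 0.18 and a lowest log2 fold change of -0.05. Of these, 1 was DE, Cox6a2, a cytochrome oxidase subunit that is on the pDC list too, which rose from 20.1 and 7.11 CPM to 148 and 96.9 CPM. Of 15 MHC class II genes 1 fell, their regulator Ciita, from 313 and 431 CPM to 216 and 259 CPM (-0.65 ± 0.20, adjusted p = 0.0941), a call that was lost without control replicate 2 or either SpiB KO library.

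Most of the largest falls other than Spib, Ftl1 and Fcer2a were at genes that stood high in control replicate 2. Myh9, the heavy chain of non-muscle myosin, measured 378 and 1017 CPM in the control libraries and 142 and 182 CPM in those of SpiB KO (-2.11 ± 0.42, adjusted p = 0.0196). Tcof1, a nucleolar protein, measured 43.1 and 121 CPM in the control libraries and 18.5 and 30.3 CPM in those of SpiB KO and Plec, the cytoskeletal linker plectin, 72.8 and 159 CPM in the control libraries and 35.6 and 41.0 CPM in those of SpiB KO. Numa1, a spindle protein, measured 62.5 and 157 CPM in the control libraries and 31.8 and 41.4 CPM in those of SpiB KO and Prrc2c 55.1 and 126 CPM in the control libraries and 28.6 and 34.9 CPM in those of SpiB KO. Control replicate 2 was more than 2 times control replicate 1 at each of these, and both SpiB KO libraries were below control replicate 1. Kmt2d, a histone methyltransferase, and the centrosomal genes Pcnt and Cep110 had log2 fold changes of -1.46, -1.56 and -1.62. Rrbp1, a protein of the endoplasmic reticulum, was the least stable of the 15, at -1.43 in the 8 libraries and -0.22 without control replicate 2. Myh9 was at -1.24 and Plec at -0.94 without it and stayed DE, whereas Tcof1, Numa1, Pcnt, Cep110, Pou2f2 and the fatty acid receptor gene Ffar1 did not. Without SpiB KO replicate 1 all of these and Prrc2c lost the call, with Myh9 at -1.94 (adjusted p = 0.186).

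Over the 362 genes that fell, control replicate 1 was the higher control library at 5.52%, against 47.9% of all genes tested, and the median log2 ratio of control replicate 1 over replicate 2 was -0.55. Ppp1r15a, a stress-induced phosphatase subunit, went the other way, with 36.5 and 19.9 CPM in the control libraries and 10.1 and 10.2 CPM in those of SpiB KO (-1.48 ± 0.27, adjusted p = 0.0115). The difference between the control libraries moves with the falls, and its part in them was not tested.

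DKO against cKO gives a second comparison with and without Spib. The libraries it compares are none of the 4 above. Both comparisons come from the same fit, however. They share its pooled spread, its CPM filter and the mean RPKM threshold over all naive libraries. A gene scarce in control meets that threshold more easily when it is high in DKO, so the calls are not independent. How much of the overlap below follows from that was not tested. Both cKO and DKO carry Cre and floxed Spi1. Spi1 nevertheless measured 59.5 and 53.2 CPM in cKO and 103 and 110.2 CPM in DKO (0.92 ± 0.11), where its excision was incomplete. The pair also differed at H2-Ea-ps and H2-K2, genes of the MHC that were high in cKO alone, and whether their background was shared was not tested. Loss of Spib, the difference in Spi1 and any difference in background cannot be told apart in this comparison. There, 668 genes were DE higher (5.34%) and 233 lower (1.86%). Of the 432 genes that rose in SpiB KO, 327 were DE higher here too, 75.7% of these and 49.0% of the 668, and 4 were DE lower. Their median log2 fold change was 1.38. Of the 362 that fell, 35 were DE lower here, 9.67% of these and 15.02% of the 233, 5 were DE higher and the median was -0.07. With 1 library left out, the falls also DE lower in the second comparison were 50 of 984 (5.08%) without control replicate 1, 21 of 97 (21.6%) without control replicate 2, 18 of 45 (40.0%) without SpiB KO replicate 1 and 23 of 171 (13.5%) without SpiB KO replicate 2. The falls shared by both comparisons included Spib, Fcer2a, Vpreb3, Pmaip1, Oas1a and Pold1.

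Examples of the shared rises are Cd7 and Cd8a. Cd7 measured 23.2 and 16.1 CPM in cKO and 500.003 and 417 CPM in DKO, and Cd8a 5.48 and 6.32 CPM and 266 and 233 CPM. The pDC genes summed to 2306 and 2122 CPM in cKO and to 6644 and 6017 CPM in DKO. Myh9, by contrast, measured 257 and 192 CPM in cKO and 159 and 287 CPM in DKO, with overlap (-0.01 ± 0.41). Tnfrsf13c, not DE in SpiB KO, was DE lower here, at 469 and 524 CPM in cKO and 272 and 313 CPM in DKO, but its 2 fold changes were not shown to differ (adjusted p = 0.457).

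**Figure D4:**
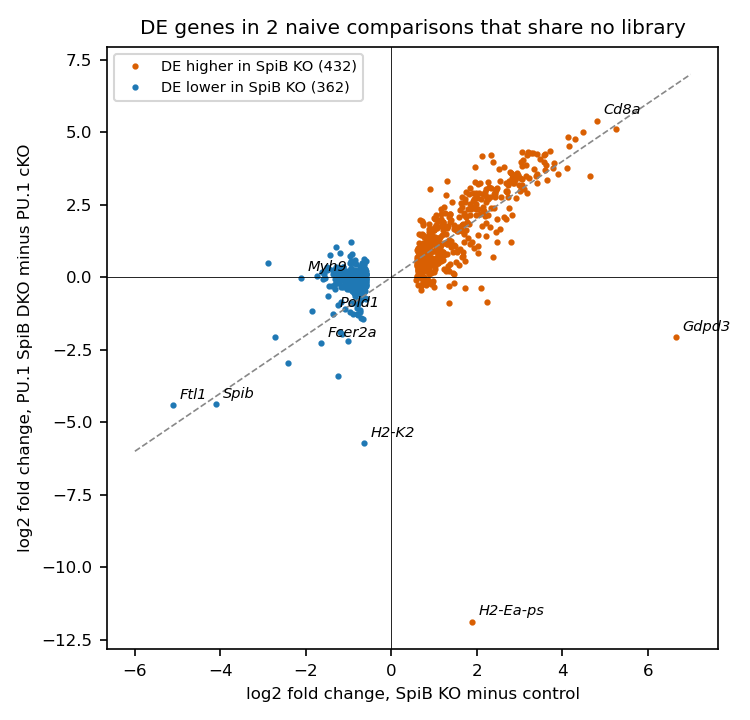
Each of the 794 DE genes is placed by its log2 fold change in SpiB KO minus control (horizontal) and in DKO minus cKO (vertical), and the dashed line marks equal values. Orange genes, which rose in SpiB KO, lie mostly near the line, while most blue genes, which fell, lie near 0 on the vertical axis. Gdpd3, H2-K2 and H2-Ea-ps lie far below the line.

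The fold change with loss of Spib differed between the 2 comparisons at 117 genes (0.936%) at an adjusted p under 0.15, of which 27 were DE in SpiB KO, 17 higher and 10 lower. This count was unstable, at 413 with DESeq2, 1088 without a filter on low counts, 1413 with the replicate number as a block and 35 to 1044 without 1 library. Gdpd3 measured 148 and 141 CPM in cKO and 25.7 and 43.7 CPM in DKO, so that it was lower with loss of Spib there and higher in SpiB KO against control. Control, the only one of the 4 genotypes without floxed Spi1, was under 1 CPM. Zap70, a kinase of T cell receptor signalling, measured 5.39 and 5.12 CPM in the control libraries and 15.6 and 13.4 CPM in those of SpiB KO, but 73.8 and 79.1 CPM in cKO and 79.4 and 86.7 CPM in DKO. Bhlha15, the secretory cell factor MIST1, measured 1.82 and 1.92 CPM in the control libraries and 9.87 and 9.71 CPM in those of SpiB KO, 9.55 and 8.15 CPM in cKO and 14.5 and 14.1 CPM in DKO. At these 2 genes as well, every library with floxed Spi1 was above both control libraries.

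At Clec12a, an inhibitory lectin of myeloid cells, and Sdc1, which encodes CD138, the rise was smaller in SpiB KO than in DKO against cKO. Clec12a measured 27.5 and 19.8 CPM in the control libraries and 112 and 92.5 CPM in those of SpiB KO, with 5.86 and 7.07 CPM in cKO and 123 and 114 CPM in DKO. Sdc1 measured 17.9 and 11.2 CPM in the control libraries and 37.9 and 33.1 CPM in those of SpiB KO, with 3.503 and 3.98 CPM and 41.2 and 34.5 CPM in the same order. Fyn, a Src-family kinase, measured 75.8 and 77.7 CPM in the control libraries and 144 and 160.1 CPM in those of SpiB KO, with 41.7 and 42.2 CPM and 169 and 177 CPM. For these genes the SpiB KO and DKO libraries lay close together and the genotypes with Spib lay apart, with cKO below control.

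A higher share of the genes near Spib on chromosome 7 was DE than of all genes tested. Within 500 kb of Spib, 11 of 37 other genes tested were DE (29.7%) and within 5 Mb 21 of 107 (19.6%), beside 6.35% of all genes tested. Of these 21, 18 were DE in the same direction in DKO against cKO. Over the whole of chromosome 7, 90 of 931 genes were DE (9.67%), against 4.26% to 9.03% on the other chromosomes listed. Within 500 kb the count was 2 of 20 at Spi1 (10.0%) and 2 of 18 at Fcer2a (11.1%). Within 5 Mb it was 2 of 45 (4.44%) and 2 of 31 (6.45%). No test was made of these counts. The 2 DE genes near Spi1 were 1110051M20Rik and Mybpc3. Mybpc3 was called on 3 raw counts in control and 17 in SpiB KO. Its mean RPKM also took in cKO and DKO, the only naive genotypes in which it was high. Both genes lost the call without control replicate 2, and each lost it without another library as well. Alleles that came along with the Spib deletion on chromosome 7 cannot be told apart from the deletion itself.

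Both direct neighbours of Spib were DE. Pold1, the catalytic subunit of DNA polymerase delta, lies 0.657 kb from Spib and fell from 194 and 208 CPM to 81.5 and 75.7 CPM (-1.36 ± 0.10, adjusted p = 0.000121). Mybpc2 lies 1.28 kb from Spib on the other side and rose from 2.45 and 2.63 CPM to 23.5 and 30.7 CPM (3.41 ± 0.22, adjusted p = 7.49e-05). Both changed in the same direction in DKO against cKO, by -1.25 ± 0.10 and 4.25 ± 0.22. Mybpc3, which lies 2.36 kb from Spi1 on chromosome 2, measured 0.07 and 0.142 CPM in the control libraries and 0.297 and 0.647 CPM in those of SpiB KO, on 3 counts in control, but 391 and 382 CPM in cKO and 265 and 335 CPM in DKO, the genotypes in which Cre acts on Spi1. Both myosin-binding protein genes were high in the genotypes in which the gene beside them was deleted in full or in part and low in the others.

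Further from Spib, Ftl1, the light chain of the iron store ferritin, was the largest fall of all DE genes. It lies 0.926 Mb away and measured 172 and 164 CPM in the control libraries and 4.82 and 4.91 CPM in those of SpiB KO (-5.11 ± 0.46, adjusted p = 0.000252), with 189 and 186 CPM in cKO and 14.3 and 3.64 CPM in DKO. Ftl1 has near-identical copies elsewhere in the genome, so its count from uniquely mapped reads is uncertain. Rcn3, a calcium-binding protein of the secretory pathway 0.551 Mb away, fell from 4.83 and 7.25 CPM to 1.07 and 0.755 CPM (-2.72 ± 0.37, adjusted p = 0.0025). Dhdh, dihydrodiol dehydrogenase, 0.941 Mb away, rose from 0.981 and 1.78 CPM to 8.21 and 10.4 CPM (2.75 ± 0.30, adjusted p = 0.000733). Prr12 and Scaf1, within 500 kb, fell in SpiB KO and were not DE in DKO against cKO, where their log2 fold changes were -0.21 ± 0.20 and -0.00 ± 0.19, but the difference did not pass its test (adjusted p = 0.212 and 0.241). The kallikrein genes Klk1, Klk1b3 and Klk1b27 rose as well, at log2 fold changes of 2.68, 3.65 and 1.84, but they are near-identical paralogs and Klk1 is also a pDC marker. Ptov1, Clec11a and Gm15545 rose and Fuz fell within the same 500 kb. Klk1b27 and Fuz lost the call without control replicate 2 or SpiB KO replicate 1, Klk1b27 and Clec11a without SpiB KO replicate 2, and Scaf1 without SpiB KO replicate 1.

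**Figure D5:**
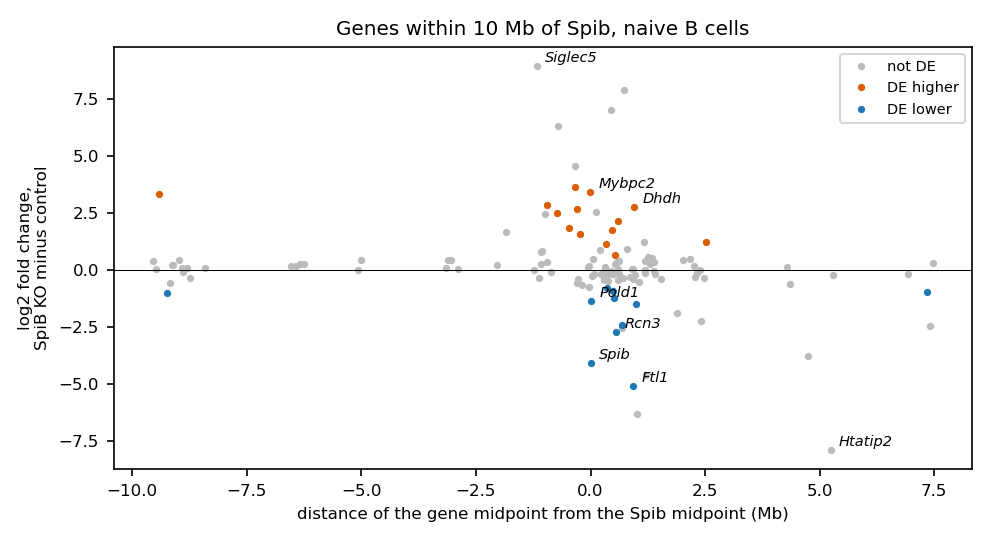
The log2 fold change of SpiB KO minus control (vertical) is plotted against the distance between the midpoints of the gene and of Spib in Mb (horizontal) for the genes tested within 10 Mb. Orange points rose, blue points fell and grey points were not DE. The 21 DE genes other than Spib within 5 Mb have gaps of 0.000657 to 2.52 Mb to it, 13 higher and 8 lower, and Siglec5 and Htatip2 changed without meeting the RPKM threshold.

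The threshold on mean RPKM left out genes that passed on adjusted p and fold. Without it 1203 genes (9.62%) passed, among them 35 of the 107 genes within 5 Mb of Spib (32.7%). Of the 409 additional genes, 383 had a mean log2 RPKM of 0 or less and 26 had no RPKM. Of them 319 were higher and 90 lower, and 303 had the same sign with an adjusted p under 0.15 in DKO against cKO. The genes named here were chosen after their values were seen. Htatip2, an oxidoreductase gene 5.23 Mb from Spib, measured 15.97 and 14.7 CPM in the control libraries and 0 and 0.108 CPM in those of SpiB KO, with 14.97 and 15.2 CPM in cKO and 0 and 0 CPM in DKO. The libraries without Spib held 0 or nearly 0 counts. Notch3, a Notch receptor, measured 1.33 and 0.711 CPM in the control libraries and 25.8 and 22.6 CPM in those of SpiB KO (4.56 ± 0.29, adjusted p = 7.49e-05), Cadm1, an adhesion molecule, 0.7 and 0.427 CPM in the control libraries and 11.8 and 19.1 CPM in those of SpiB KO (4.76 ± 0.52, adjusted p = 0.000751), and Nrp1, the co-receptor neuropilin 1, 1.68 and 0.711 CPM in the control libraries and 15.5 and 10.7 CPM in those of SpiB KO (3.44 ± 0.35, adjusted p = 0.000476). Each of the 3 was at most 1.7 CPM in control and over 10 CPM in both SpiB KO libraries.

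Few of these changes were called after 48 h of culture, in which control and SpiB KO cells were given IL-4 with either CD40L or LPS. In CD40L + IL-4, 9 genes were DE higher (0.0707%) and 5 lower (0.0393%). Of the 432 genes that rose in naive cells 386 were tested there. Of these, 6 were DE higher, 66.7% of the 9, and 1 lower, and the median log2 fold change was 0.02. Of the 362 that fell, 3 were DE lower and none higher, with a median of -0.17. In LPS + IL-4, 202 genes were DE higher (1.62%) and 83 lower (0.667%) without the replicate number in the fit, and 296 and 113 with it as a block. The fit without a block tested 374 of the genes that rose in naive cells. Of these, 31 were DE higher, 15.3% of the 202, and 4 lower, with a median of 0.08. Of the genes that fell in naive cells, 12 were DE lower in that fit, 14.5% of the 83, and 4 higher, with a median of 0.06. The counts moved when 1 library was left out, to 3 to 23 higher and 2 to 7 lower with CD40L and to 91 to 497 higher and 50 to 99 lower with LPS. The difference between stages was not tested.

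Of the 18 pDC genes, 14 were tested after CD40L + IL-4 and 12 after LPS + IL-4. Those tested summed to 882 and 1041 CPM in control and 1010 and 769 CPM in SpiB KO in the former, and to 669 and 566 CPM and 582 and 641 CPM in the latter. In both cultures the groups overlapped. Fcer2a measured 1023 and 1065 CPM in control and 637 and 594 CPM in SpiB KO after CD40L + IL-4, where it was not DE, and 791 and 719 CPM and 472 and 431 CPM after LPS + IL-4, where it was DE lower.

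At 6 genes the change was called in the same direction in naive SpiB KO, in SpiB KO of both cultures and in naive DKO against cKO. Spib, Ftl1 and Rcn3 fell, and Gm20746, Gm15545 and Dhdh rose. All but Gm20746 lie on chromosome 7 within 1 Mb of Spib. Gm20746 measured 1.14 and 1.57 CPM in control and 36.8 and 38.8 CPM in SpiB KO after CD40L + IL-4, and 7.65 and 7.58 CPM and 42.8 and 65.7 CPM after LPS + IL-4. Gdpd3, in contrast, was at most 0.433 CPM in the control and SpiB KO libraries of both cultures.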

How the data were processed

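RNA-seq of mouse lymph node B cells was deposited as 24 libraries, 2 for each of 4 genotypes at 3 stages. The authors aligned reads to GRCm38/mm10 with Subread, kept uniquely mapped reads and deposited raw counts per RefSeq gene from featureCounts. They also deposited quantile-normalized log2 RPKM values per library, used here only as the expression threshold. For each stage its 8 libraries entered 1 model in edgeR 4.0.16 (TMM scaling, quasi-likelihood test; R 4.3.3), after a filter of 0.5 CPM in at least 2 libraries, with Benjamini-Hochberg adjustment over all genes tested. DE required an adjusted p under 0.15, more than a 1.5-fold difference and a mean log2 RPKM above 0. Genes without RPKM (227 of 12500) could not be DE. Each standard error was taken as the log2 fold change over the square root of its F statistic. With 2 against 2 libraries, an exact permutation test of a single gene cannot go below p = 0.333, so none was run. Groups and replicate numbers came from the sample titles. The extraction protocol in the labels describes cells activated with CD40L and IL-4 for every library, the naive ones included, so the naive stage rests on the titles and the study. Entries with an Entrez ID but no gene symbol (517, holding 0.162% of counts) were kept by ID. The fit was tested on simulated data drawn with the pooled spread, without the RPKM threshold. No simulated control library stood apart from the other, so that test does not bear on falls that depend on 1 control library.

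Genes were named by a rule: Spib, Spi1, Fcer2a and Tnfrsf13c, the 15 largest rises and falls of DE genes with a group mean of at least 10 CPM and no overlap, up to 6 DE members of each list (or the 2 most abundant), DE genes within 500 kb of Spib, Spi1 or Fcer2a, genes DE in 4 comparisons, and 10 with a different fold change in the second naive comparison. A few genes that the rule or the lists hold are not reported here. Other genes were named as list members or after their values were seen. The comparison, the members and the lists were chosen with earlier results of these data known. Positions came from RefSeq (GRCm38.p6) by Entrez ID, for 97.6% of the genes tested. The replicates are biological per the methods. The p-values set a difference against the spread within genotypes, pooled over the 8 libraries of a stage. The wider spread of the naive control pair is thus averaged with that of the other genotypes. Alternatives were DESeq2 1.42.0, limma 3.58.1 voom with quantile normalization, other filters and thresholds, a replicate block and leaving out each library. Whether replicate numbers pair the libraries was checked by the correlation of same-numbered deviations. It was 0.0918 to 0.25 in naive cells and -0.0702 to 0.266 in CD40L + IL-4, where pairing was not shown. In LPS + IL-4 it was 0.386 to 0.514, and there the numbers were taken to pair. The LPS + IL-4 fold changes and calls of single genes still come from the fit without a block. Only the counts of DE genes were also given with it.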

Additional observations from a re-analysis of the deposited data

Results flagged for a closer look

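At 14 of the genes named by rule, the fold change with loss of Spib differed between the pair of genotypes with both floxed Spi1 and Cre (DKO minus cKO) and SpiB KO minus control in naive cells, by the interaction test of edgeR. A negative difference means a lower value in the former comparison. The difference was -8.70 ± 0.46, adjusted p = 2.15e-05 at Gdpd3, -5.09 ± 0.28, adjusted p = 2.49e-05 at H2-K2 and -3.07 ± 0.36, adjusted p = 0.00603 at Enpp4. H2-Ea-ps gave -13.78 ± 0.69, adjusted p = 2.15e-05, a value that depends on the prior count, since its levels were 2528 and 2217 CPM in cKO and under 1 CPM in the other 6 naive libraries. Whether the genotypes shared one strain background at these genes was not tested. H2-K2, a class I gene of the same locus, measured 198 and 205 CPM in cKO, 6.16 and 7.40 CPM in the control libraries and 5.29 and 3.45 CPM in those of SpiB KO, and 3.69 and 3.90 CPM in DKO. Enpp4 measured 2.52 and 1.92 CPM in the control libraries and 11.4 and 9.49 CPM in those of SpiB KO, 21.1 and 23.6 CPM in cKO and 15.3 and 9.80 CPM in DKO, and Gad1 2.73 and 2.28 CPM in the control libraries and 5.65 and 7.06 CPM in those of SpiB KO, 11.5 and 10.5 CPM and 5.04 and 6.85 CPM in the same order.

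The remaining differences were 2.08 ± 0.26, adjusted p = 0.00826 at Clec12a, 1.06 ± 0.15, adjusted p = 0.0172 at Fyn, -1.34 ± 0.20, adjusted p = 0.0248 at Zap70 and -2.23 ± 0.35, adjusted p = 0.0359 at Gad1. Sdc1 gave 2.05 ± 0.32, adjusted p = 0.0359 and Bhlha15 -1.69 ± 0.28, adjusted p = 0.0442. Spi1, at 59.5 and 53.2 CPM in cKO and 103 and 110.2 CPM in DKO, where its excision was incomplete, gave 0.93 ± 0.16, adjusted p = 0.0486. Csf2rb gave 1.55 ± 0.27, adjusted p = 0.0621, Igkc -0.82 ± 0.17, adjusted p = 0.108 and Il6ra 1.54 ± 0.35, adjusted p = 0.148. With 2 libraries a group, no library could be examined as an outlier within its group.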

How the results depend on the processing

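None of the 794 genes called in naive SpiB KO changed sign under DESeq2, voom, no filter, the 4 libraries alone, the replicate block or without 1 library. The groups did not overlap at any of these genes. A change of sign was therefore hardly possible, and its absence is no measure of stability. Higher calls numbered 339 to 494 and lower calls 258 to 561 under DESeq2, voom, no filter, the 4 compared libraries alone and the replicate block, with 561 lower calls without a filter, where 424 of the 432 rises and all 362 falls were kept. At an adjusted p under 0.05 lower calls numbered 123, and without the RPKM threshold higher calls numbered 751. Leaving out 1 library gave 260 to 575 higher and 45 to 984 lower calls. The replicate block kept all 432 rises and 355 of the 362 falls, and Rasgrp3 alone among the named genes lost its call under it. In DKO against cKO the counts stayed within 1.5 times, at 490 to 584 higher and 160 to 245 lower calls without 1 library. The count of genes with a different fold change, 117, was the least stable: 413 with DESeq2, 1088 without a filter, 41 at an adjusted p under 0.05, 1413 with the replicate block and 35 to 1044 without 1 library. In CD40L + IL-4, 3 genes were higher at an adjusted p under 0.05, and 23 were higher and 24 lower with the replicate block. Without 1 library they were 3 to 23 and 2 to 7. In LPS + IL-4, 119 were higher at an adjusted p under 0.05, and 91 to 497 higher and 50 to 99 lower without 1 library. The replicate block gave 494 and 492 in naive SpiB KO, 727 and 267 in DKO against cKO, and 296 and 113 in LPS + IL-4. The cause of these shifts was not tested. Where 1 library is left out, the lone library of its group is assumed to vary like the other groups.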
